A study of Mus musculus with 64 samples.

Results

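The 10 genes described here, classical targets of the glucocorticoid receptor (GR), were followed through RNA-seq counts of 64 libraries from mouse hippocampus and liver. They are Fkbp5, Tsc22d3, Sgk1, Zbtb16, Dusp1, Nfkbia, Errfi1, Ddit4, Cdkn1a and Map3k6. They were chosen by name, and each was found by its Ensembl identifier, giving 10 of the 55414 genes counted in the acute experiment and 10 of the 55573 counted in the continuous experiment. The study asked how loss of UBE3A, a ubiquitin ligase whose absence causes Angelman syndrome (AS), alters the response to corticosterone (CORT), the main glucocorticoid of the mouse.

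WT mice and AS mice, which carry the maternal Ube3a deletion (m-/p+), were male F1 hybrids of C57BL/6J and 129sv at 10 to 18 weeks. In the acute experiment 6 mice per group received vehicle or 3 mg/kg CORT under the skin, and the left hippocampus was taken 3 h later. In the continuous experiment 5 mice per group were implanted with a cholesterol pellet, either plain (vehicle) or holding 20 mg CORT, for 5 days before the left hippocampus and the liver were taken. No adrenalectomy was described, so the vehicle groups carried their own glucocorticoid. The paternal Ube3a copy is silent in neurons and active in most other cells, and the liver of AS mice therefore models a reduced rather than an absent gene. Total Ube3a RNA in AS mice differed from that in WT mice by -0.06 (vehicle) and 0.10 (CORT) on the log2 scale in the acute hippocampus, by -0.05 and 0.14 in the continuous hippocampus, and by -0.55 and -0.48 in the liver. Its adjusted p-values were 0.901, 0.461, 0.954, 0.629, 0.0191 and 0.0133 in the same order. Counts over the whole gene therefore separated the genotypes in liver only.

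Counts on genes numbered 18612550 to 21783009 per library. Levels are given as CPM, the reads of a gene scaled to the reads on all genes of its library, after TMM scaling, and a CORT effect is the log2 fold change of CORT over vehicle with its SE from edgeR's quasi-likelihood test. A gene was called when its p-value, adjusted over all genes tested in that data set, was under 0.05. The continuous hippocampus was fitted without AS vehicle mouse H9 and WT vehicle mouse H13, which the study also left out, so that the 2 vehicle groups hold 4 mice each. Mouse numbers of the acute and continuous cohorts are unrelated. Summed neuronal markers were 5073 to 7607 CPM in the hippocampi, and summed hepatocyte markers were 90080 to 136601 CPM in the livers. Summed choroid plexus markers in continuous hippocampus were 76.1 to 2860 CPM (mean 1069) in WT vehicle mice and 36.2 to 125 CPM in WT CORT mice. They were 83.4 to 323 CPM in AS vehicle and 46.1 to 496 CPM in AS CORT mice. In acute hippocampus they reached 1058 CPM in WT vehicle mice and at most 59.3 CPM in the other groups. The part of this tissue in the WT effects was not tested. In the acute hippocampus all 12 WT libraries and 4 AS vehicle libraries held 1877 to 2237 reads set aside for low alignment quality, and the remaining 2 AS vehicle and all 6 AS CORT libraries held 2640 to 2850. The origin of this division is not known. It runs along the AS CORT group, so acute results for AS mice were also computed with the division as a covariate. Only the AS vehicle group holds both sides, so the covariate rests on 4 against 2 mice (H17 and H18). It nearly repeats a fit with those 2 as the only AS vehicle mice. Both widen the SE of AS effects, as for Ddit4 (0.16, against 0.11), so a lost call does not show a lost effect.

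GR is a transcription factor that rests in the cytoplasm with heat shock proteins, moves to the nucleus when it binds hormone, and binds DNA as a pair of molecules at glucocorticoid response elements. The element is an inverted repeat of the half-site AGAACA with 3 bases between the copies, and many elements lie far from the genes they serve. Its targets include brakes on the receptor itself, brakes on inflammation and growth signals, and kinases that change ion transport. In the hippocampus, which is rich in GR and in the mineralocorticoid receptor (MR), they are widely used as a readout of hormone exposure, and in the liver they accompany the fasting and glucose programme.

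RefSeq promoter windows of GRCm38.p6, running from 250 bases before to 50 bases after an annotated start, were held for 9 of the 10 genes. Of these 18 windows 6 belonged to Sgk1 and 3 to Tsc22d3, with none for Zbtb16. The 5 shown include 1 each of Sgk1, Map3k6 and Tsc22d3, which hold the receptor element or a part of it. The others are of Dusp1, which CORT did not move past the threshold in either genotype of any data set, and of Fkbp5. CORT raised Fkbp5 in both genotypes of all data sets, and its window holds neither the element nor its half-site. The full element, AGAACA then 3 bases then TGTTCT, was found in 3 of 32851 windows (0.00913%). Among these was 1 of the 6 windows of Sgk1, with the element 189 bases before the start of that window's transcript. A looser core, in which only GNACA, 3 bases and TGTNC were required, was held by 156 windows (0.475%), among them that window of Sgk1, where it overlaps the full element, and the window of Map3k6. Both patterns read the same on either strand. In the lines that follow capitals mark the element in Sgk1 (chr10:21993640-21993939, plus strand), its core in Map3k6 (chr4:133240568-133240867, plus strand), the half-site read on the opposite strand in Tsc22d3 (chrX:140600473-140600772, minus strand), the cyclic AMP response element TGACGTCA in Dusp1 (chr17:26508423-26508722, minus strand) and the E-box CACGTG in Fkbp5 (chr17:28486100-28486399, minus strand).

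Sgk1: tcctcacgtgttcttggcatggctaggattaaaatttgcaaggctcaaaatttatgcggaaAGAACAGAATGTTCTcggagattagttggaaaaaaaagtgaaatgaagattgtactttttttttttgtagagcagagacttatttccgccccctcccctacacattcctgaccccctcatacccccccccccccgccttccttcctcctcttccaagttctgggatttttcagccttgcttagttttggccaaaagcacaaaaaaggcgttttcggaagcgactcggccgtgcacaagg
Map3k6: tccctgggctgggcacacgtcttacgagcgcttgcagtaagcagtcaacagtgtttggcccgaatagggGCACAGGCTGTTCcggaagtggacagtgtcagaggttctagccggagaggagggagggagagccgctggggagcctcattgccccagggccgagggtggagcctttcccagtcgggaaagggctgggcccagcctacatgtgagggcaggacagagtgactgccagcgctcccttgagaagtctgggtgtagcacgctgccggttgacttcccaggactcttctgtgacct
Tsc22d3: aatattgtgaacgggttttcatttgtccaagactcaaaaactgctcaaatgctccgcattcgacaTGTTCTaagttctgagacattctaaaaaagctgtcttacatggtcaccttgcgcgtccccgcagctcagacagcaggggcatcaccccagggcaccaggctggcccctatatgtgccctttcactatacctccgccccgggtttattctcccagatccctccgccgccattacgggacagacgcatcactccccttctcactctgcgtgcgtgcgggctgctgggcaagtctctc
Dusp1: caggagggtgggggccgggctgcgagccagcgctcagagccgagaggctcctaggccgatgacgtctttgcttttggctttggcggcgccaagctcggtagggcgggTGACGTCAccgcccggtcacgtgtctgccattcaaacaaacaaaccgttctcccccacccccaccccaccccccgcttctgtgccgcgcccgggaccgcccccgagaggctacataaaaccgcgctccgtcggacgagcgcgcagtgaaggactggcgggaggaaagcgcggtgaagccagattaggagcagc
Fkbp5: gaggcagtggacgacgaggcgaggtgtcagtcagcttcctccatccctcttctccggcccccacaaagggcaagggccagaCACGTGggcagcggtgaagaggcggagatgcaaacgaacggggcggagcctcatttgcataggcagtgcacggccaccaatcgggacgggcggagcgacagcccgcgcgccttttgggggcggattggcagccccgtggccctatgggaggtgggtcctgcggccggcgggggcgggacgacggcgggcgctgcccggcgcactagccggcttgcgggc

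On either strand, the half-site alone was held by 19% of all windows and by 4 of the 18 windows of these genes, all of Sgk1 or Tsc22d3. TGACGTCA was held by 1.79% of windows, including those of Dusp1 and Errfi1, and CACGTG by 7.15%, including those of Fkbp5, Dusp1 and Sgk1. A match of letters describes the window and is not evidence of binding, and the lack of one in the Fkbp5 window says only that the letters are not in those 300 bases.

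All 10 genes passed the filter on low counts in the acute hippocampus, the continuous hippocampus and the liver. By its levels, Map3k6 passed it in liver only through the AS CORT group, where it was highest. Averaged over WT and AS mice, CORT raised 9 of them in the acute hippocampus, where 3.37% of all genes tested were called higher, 9 in the continuous hippocampus (4.19% of all genes) and 7 in the liver (17.5% of all genes). None was called lower. Dusp1 was the exception in both hippocampal data sets, and Dusp1, Sgk1 and Nfkbia were the exceptions in the liver. With the low-quality covariate the acute count was 8, Ddit4 being lost, beside 294 of all genes (492 without the covariate). The median CORT effect over the 10 genes was 0.54 in the acute hippocampus, 0.67 in the continuous hippocampus and 1.37 in the liver, beside medians over all genes tested that lay within 0.01 of 0.

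By genotype, 5 genes rose in acute WT hippocampus (1.03% of all genes tested) and 7 in acute AS hippocampus (7.96%). The acute AS count with the low-quality covariate was 5 of the 10 genes and 114 of all genes, against 1163 of all genes without it. With 1 mouse left out the acute AS counts were 6 to 9 of the 10 and 627 to 1698 of all genes, the fewest of all genes without AS vehicle mouse H14 and the most without H17. After continuous CORT, 6 rose in WT hippocampus (0.803%) and 8 in AS hippocampus (2.03%). With all 20 mice these were 3 in WT and 6 in AS hippocampus, beside 34 and 86 of all 15080 genes tested (120 and 303 of 14949 without H9 and H13). With 1 mouse left out the WT count was 4 to 8, beside 67 to 141 of all genes, and was 4 without any 1 of WT vehicle mice H1, H6 and H17. In the liver 6 rose in WT mice (8.73%) and 7 in AS mice (12.6%). Fkbp5, Tsc22d3, Cdkn1a and Map3k6 were called in all 6 of these comparisons without mice H9 and H13, Zbtb16 and Ddit4 in 5, Sgk1 and Nfkbia in 2, Errfi1 in 1 and Dusp1 in 0. Genes called higher in all 6 comparisons were rare, numbering 9 of the 10848 tested in all of them (0.083%). Beside these 4 targets they were Plin4, Mfsd2a, Sult1a1, Mt1 and Fam107a.

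**Figure D1:**
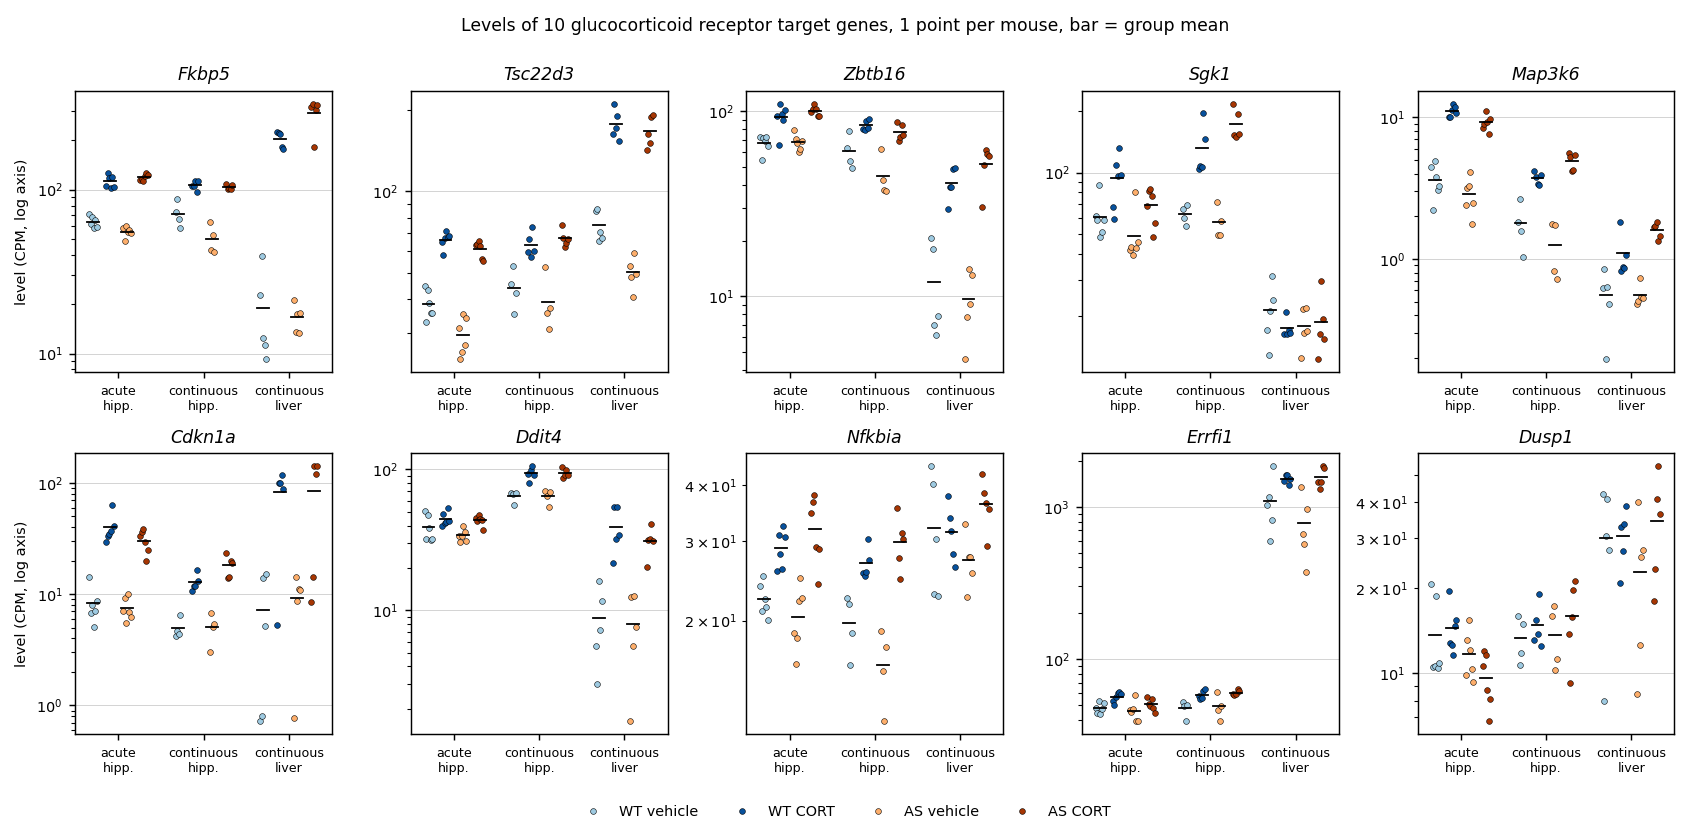
Level of each of the 10 genes in CPM on a log axis, with 1 point per mouse and a bar at the group mean, for WT and AS mice given vehicle or CORT in the acute hippocampus, the continuous hippocampus without H9 and H13, and the liver. Fkbp5 spans 9.24 CPM in a WT vehicle liver to 333 CPM in an AS CORT liver, while the hippocampal groups of Dusp1 overlap throughout.

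Every CORT mouse lay above every vehicle mouse of its genotype for 5 of the 10 genes in acute WT hippocampus, against 0.876% of all genes, and for 5 in acute AS hippocampus, against 2.82%. The same held for 9 genes in continuous WT hippocampus (2.62% of all genes), 8 in continuous AS hippocampus (3.4%), 4 in WT liver (7.03%) and 5 in AS liver (7.51%). In bulk tissue, a change in the number of cells that express a gene cannot be told apart from a change in RNA per cell. Summed microglial markers (4 genes) in continuous hippocampus were 217 to 241 CPM with vehicle and 181 to 203 CPM with CORT in WT mice, and 199 to 223 and 174 to 197 CPM in AS mice, without overlap. Summed blood markers (5 genes) there were 40.8 to 58.7 and 75.2 to 185 CPM in WT mice and overlapped in AS mice. In acute AS hippocampus summed oligodendrocyte markers (5 genes) averaged 3451 CPM with vehicle and 2263 CPM with CORT, with overlap. Without the low-quality covariate 2 of the 5 were called lower, beside 1433 of all 14611 genes. In acute WT hippocampus the same sums averaged 3554 and 3451 CPM, and none of the 5 was called. The part of these cells in the results was not tested.

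Fkbp5 encodes a co-chaperone of Hsp90 that lowers the affinity of GR for hormone, and so acts as a brake on the receptor. In acute hippocampus its level was between 58.4 and 70.6 with a median of 63.7 CPM in WT vehicle mice and between 103 and 126 with a median of 111 CPM in WT CORT mice. In AS mice it was between 48.5 and 60.1 with a median of 55.7 CPM with vehicle and between 113 and 126 with a median of 118 CPM with CORT. The treatments did not overlap in either genotype. The CORT effect was 0.81 ± 0.06 in WT mice (adjusted p = 4.06e-09) compared with 1.10 ± 0.06 in AS mice (adjusted p = 8.55e-12), a rise of 1.76-fold and 2.14-fold.

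After continuous CORT, hippocampal Fkbp5 read 58.5, 66.2, 72.7 and 87.3 CPM in WT vehicle mice and 96.8, 105, 106, 112 and 112 CPM in WT CORT mice. The AS mice read 41.8, 42.7, 53.2 and 63.4 CPM with vehicle and 101, 102, 103, 106 and 108 CPM with CORT. The CORT mice of both genotypes sat close together, and the vehicle mice were spread below them without overlap. The effects were 0.58 ± 0.11 (adjusted p = 0.00461) and 1.05 ± 0.11 (adjusted p = 1.3e-05), and the WT call was lost with all 20 mice (0.75, adjusted p = 0.0985).

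In the liver the same gene started lower and ended higher. It read 9.24, 11.3, 12.5, 22.8 and 39.3 CPM in WT vehicle livers and 176, 182, 219.6, 220.1 and 224 CPM in WT CORT livers. AS livers read 13.4, 13.5, 17.4, 17.6 and 21.1 CPM with vehicle and 183, 305, 321, 326 and 333 CPM with CORT. No CORT liver came near a vehicle liver, and the rise was 10.7-fold in WT mice (log2 3.43 ± 0.31, adjusted p = 2.06e-07) and 17.7-fold in AS mice (log2 4.14 ± 0.32, adjusted p = 1.6e-08). Fkbp5 (chr17:28399094-28517527 of GRCm38) is overlapped by 4 annotated genes, 2 of them on the opposite strand, and whether counting used strand was not given in the sources used here, so their reads cannot be told apart.

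Tsc22d3, also known as GILZ, is a leucine zipper protein that carries part of the anti-inflammatory action of glucocorticoids. In acute hippocampus it lay between 32.9 and 44.5 with a median of 37 CPM in WT vehicle mice and between 57.9 and 71.5 with a median of 67.3 CPM in WT CORT mice. AS mice lay between 23.9 and 35.3 with a median of 29 CPM with vehicle and between 55.4 and 65.5 with a median of 63.1 CPM with CORT. Groups did not overlap, and the effects were 0.79 ± 0.09 (adjusted p = 1.71e-06) and 1.05 ± 0.09 (adjusted p = 9.85e-09).

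With the CORT pellet, hippocampal Tsc22d3 rose from between 35 and 53 to between 57.3 and 73.9 CPM in WT mice and from between 30.9 and 52.3 to between 62.1 and 75 CPM in AS mice. The effects, 0.53 ± 0.13 (adjusted p = 0.0279) and 0.78 ± 0.13 (adjusted p = 0.00118), were both called. The WT call was lost in 5 of the 18 fits that left out 1 mouse. The vehicle mouse H9, outside these groups, held 82.1 CPM, above every AS CORT mouse, and with all 20 mice neither call was kept (0.55, adjusted p = 0.167 in WT, and 0.50, adjusted p = 0.266 in AS).

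Liver Tsc22d3 read 65.6, 67.4, 70.7, 84.4 and 85.9 CPM in WT vehicle mice and 154, 163, 171, 189.8 and 211 CPM in WT CORT mice. In AS mice it read 40.5, 48.2, 49.6, 53 and 59 CPM with vehicle and 143, 151, 163, 189 and 192 CPM with CORT. All AS vehicle livers lay below all WT vehicle livers, whereas the CORT livers of the genotypes overlapped. The rise was 2.38-fold in WT mice (adjusted p = 2.47e-07) compared with 3.34-fold in AS mice (adjusted p = 2.13e-09).

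Nfkbia encodes the inhibitor that holds NF-kappaB in the cytoplasm. In acute hippocampus it ran from 20.1 to 25.1 CPM in WT vehicle mice and from 25.7 to 32.5 CPM in WT CORT mice, without overlap and with an effect of 0.38 ± 0.10 that missed the threshold (adjusted p = 0.0721). The AS mice gave 16 to 24.8 CPM with vehicle and 24.1 to 38 CPM with CORT, an overlap of their extremes and a called effect of 0.64 ± 0.10 (adjusted p = 0.000194). With a covariate for the low-quality division, that AS effect was 0.43 and was no longer called (adjusted p = 0.203), whereas the WT effect passed (adjusted p = 0.0418). DESeq2 also called the WT effect (adjusted p = 0.0265), as did the fits of the WT groups alone (0.0247) and without the filter on low counts (0.0495).

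In continuous hippocampus Nfkbia was separated by treatment in both genotypes, with an effect of 0.44 ± 0.13 in WT mice (adjusted p = 0.0657) compared with 0.91 ± 0.13 in AS mice (adjusted p = 0.000205). The WT effect was called by DESeq2 (adjusted p = 0.0198), by limma-voom (0.0258) and without the filter on low counts (0.0452). Liver values overlapped between treatments, at 22.6 to 44.1 CPM (WT vehicle), 26.3 to 37.9 CPM (WT CORT), 22.6 to 32.8 CPM (AS vehicle) and 29.3 to 42.5 CPM (AS CORT). With edgeR neither liver effect was called, at -0.02 ± 0.17 (adjusted p = 0.95) and 0.42 ± 0.17 (adjusted p = 0.0684). The AS effect was called by DESeq2 (adjusted p = 0.0476), by limma-voom (0.037) and when only the AS groups were fitted (0.0211). In the same livers all 4 Kupffer cell markers fell, with sums of 107 to 195 CPM in vehicle livers and 51.3 to 78.5 CPM in CORT livers, and summed blood markers (5 genes) were 342 to 573 and 228 to 327 CPM in WT mice (vehicle, then CORT), compared with 243 to 474 and 124 to 192 CPM in AS mice. The part of these cells in the liver values was not tested.

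Zbtb16, also known as PLZF, is a zinc finger repressor. Acute CORT moved it from 67.7 ± 7.02 to 93.2 ± 15.1 CPM in WT mice (mean ± SD, n = 6) and from 68.3 ± 6.79 to 101 ± 5.63 CPM in AS mice. WT groups overlapped through 1 CORT mouse at 65.9 CPM, and AS groups did not overlap. The effects were 0.46 ± 0.09 (adjusted p = 0.00429) and 0.56 ± 0.09 (adjusted p = 0.000182). The WT call was lost when only the WT groups were fitted (0.46, adjusted p = 0.0548).

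Continuous CORT separated hippocampal Zbtb16 in both genotypes, from between 49.6 and 78.5 to between 79.5 and 91.4 CPM in WT mice and from between 36.9 and 62.3 to between 69.5 and 87.3 CPM in AS mice. With edgeR only the AS effect of 0.80 ± 0.14 was called (adjusted p = 0.0022), the WT effect being 0.46 ± 0.14 (adjusted p = 0.0934), which DESeq2 and limma-voom called (adjusted p = 0.0312 and 0.0103). The 2 mice left out stood far below all others, at 9.94 CPM (H13) and 16.6 CPM (H9), and with all 20 mice the AS effect was 0.99 and was not called (adjusted p = 0.221).

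In liver, Zbtb16 read 6.14, 7.02, 7.8, 18 and 20.7 CPM in WT vehicle mice and 29.7, 38.8, 38.9, 49.1 and 49.6 CPM in WT CORT mice. AS mice read 4.56, 7.72, 9.07, 13.1 and 14 CPM with vehicle and 30.4, 51.2, 57.7, 58.9 and 62.1 CPM with CORT. Treatments did not overlap, and the rise was 3.45-fold (adjusted p = 0.000608) and 5.37-fold (adjusted p = 2.19e-05).

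Sgk1 encodes a kinase that raises the activity of ion channels and transporters, and is a target of MR as well as of GR. In acute hippocampus it lay between 48.5 and 87.1 with a median of 58.4 CPM in WT vehicle mice and between 59.1 and 131 with a median of 96.9 CPM in WT CORT mice. AS mice lay between 39.4 and 80.4 with a median of 43 CPM with vehicle and between 48.6 and 83.5 with a median of 72.5 CPM with CORT. The groups overlapped in both genotypes, in each through high vehicle mice (H3 and H1 in WT, H16 in AS) and low CORT mice. With edgeR neither genotype was called, at 0.62 ± 0.19 (adjusted p = 0.119) and 0.50 ± 0.19 (adjusted p = 0.0659), and the average over both was, at 0.56 ± 0.13 (adjusted p = 0.00752). The AS effect was called by limma-voom (adjusted p = 0.0392), when only the AS groups were fitted (0.0482), and without H16 (0.70, adjusted p = 0.0107), WT CORT mouse H8 or AS CORT mouse H23. The WT effect was called without the filter on low counts (adjusted p = 0.0484), and without H3, H8 or H16.

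Continuous CORT gave a larger effect on hippocampal Sgk1 than acute CORT, but the difference was not called in WT mice. In AS mice and on average its call was lost with the low-quality covariate. WT mice read 55.1, 60.1, 66.3 and 69.7 CPM with vehicle and 104, 107, 108, 146 and 195 CPM with CORT. AS mice read 49.8, 49.8, 58.3 and 71.8 CPM with vehicle and 149, 152, 155, 194 and 216 CPM with CORT. All CORT mice lay above all vehicle mice, with a rise of 2.1-fold in WT mice (adjusted p = 0.00153) compared with 3.02-fold in AS mice (adjusted p = 1.88e-05).

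In the livers of the same mice Sgk1 did not follow. It read 12.8, 17, 21.1, 23.8 and 31.4 CPM in WT vehicle mice and 16.2, 16.3, 16.5, 17 and 20.9 CPM in WT CORT mice. AS livers read 12.4, 16.4, 16.8, 21.7 and 21.7 CPM with vehicle and 12.3, 15.5, 16.2, 19.2 and 29.6 CPM with CORT. Treatments overlapped, and the effects of -0.29 ± 0.23 (95% interval -0.73 to 0.16, adjusted p = 0.426) and 0.06 ± 0.23 (95% interval -0.38 to 0.51, adjusted p = 0.87) were not called. The upper ends of both intervals lie below the hippocampal effects of the same genotype.

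Map3k6 encodes a kinase at the head of a MAP kinase cascade, and its window holds the looser core shown above. It was expressed at low levels, so its fold changes rest on few reads. In acute hippocampus it lay between 2.23 and 4.94 with a median of 3.52 CPM in WT vehicle mice and between 10.0 and 12.4 with a median of 11 CPM in WT CORT mice. AS mice lay between 1.75 and 4.09 with a median of 2.84 CPM with vehicle and between 7.62 and 11.1 with a median of 9.14 CPM with CORT. The groups were far apart, with rises of 3.04-fold (adjusted p = 1.66e-07) and 3.21-fold (adjusted p = 7e-08).

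Continuous CORT raised hippocampal Map3k6 from between 1.04 and 2.67 to between 3.32 and 4.16 CPM in WT mice (log2 1.06 ± 0.24, adjusted p = 0.0212) and from between 0.726 and 1.76 to between 4.17 and 5.63 CPM in AS mice (log2 1.97 ± 0.25, adjusted p = 8.07e-05). The WT call was lost in 4 of the 18 fits that left out 1 mouse. In liver its level was 0.196 to 0.854 CPM with vehicle and 0.821 to 1.83 CPM with CORT in WT mice, and 0.48 to 0.737 and 1.35 to 1.81 CPM in AS mice. Only the AS groups were apart. Both effects were called, at 0.97 ± 0.28 (adjusted p = 0.0197) and 1.51 ± 0.27 (adjusted p = 0.000331). The WT call was lost without WT CORT mouse L3 (adjusted p = 0.0745) and when only the WT groups were fitted (adjusted p = 0.0828). By these levels the gene passed the filter on low counts in liver only through the AS CORT group. Without that filter the same 9 genes were called higher in all 6 comparisons, Map3k6 among them.

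Cdkn1a encodes p21, an inhibitor of cyclin-dependent kinases. A gene on the opposite strand overlaps it, with the same limit on reads as for Fkbp5. It had the largest acute effect of the 10 genes, and lay between 5.03 and 14.2 with a median of 7.54 CPM in WT vehicle mice and between 29.8 and 64 with a median of 36 CPM in WT CORT mice. In AS mice it lay between 5.47 and 10.0 with a median of 6.98 CPM with vehicle and between 19.8 and 38.8 with a median of 31.3 CPM with CORT. No CORT mouse overlapped a vehicle mouse, and the rise was 4.81-fold (log2 2.27 ± 0.21, adjusted p = 1.32e-07) and 4.04-fold (log2 2.01 ± 0.22, adjusted p = 5.67e-07). Only 3 of the 14611 genes tested had an average effect above it.

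With the pellet, hippocampal Cdkn1a read 4.22, 4.37, 4.7 and 6.48 CPM in WT vehicle mice and 10.7, 11.8, 11.9, 13.3 and 16.7 CPM in WT CORT mice. AS mice read 3.05, 5.08, 5.44 and 6.72 CPM with vehicle and 14.1, 14.1, 19.2, 20.1 and 23.4 CPM with CORT. Again the treatments were apart, with effects of 1.38 ± 0.21 (adjusted p = 0.000648) and 1.84 ± 0.20 (adjusted p = 1.83e-05). The WT vehicle mouse H13, outside these groups, held 13.4 CPM, within the WT CORT range, and with all 20 mice the WT effect was 0.96 and was not called (adjusted p = 0.0983).

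Liver Cdkn1a had the widest error of the 10 genes. WT livers read 0.721, 0.803, 5.14, 14 and 15.2 CPM with vehicle and 5.34, 88.9, 100.1, 100.3 and 117 CPM with CORT. AS livers read 0.769, 8.65, 10.9, 11.1 and 14.3 CPM with vehicle and 8.52, 14.1, 121, 141 and 142 CPM with CORT. One WT CORT mouse (L3) and 2 AS CORT mice (L7 and L8) stayed within the vehicle range of their genotype, and the other CORT livers lay far above it. The effects of 3.52 ± 0.92 (adjusted p = 0.0104) and 3.22 ± 0.91 (adjusted p = 0.0119) were called, but not by limma-voom with sample weights (adjusted p = 0.0513 and 0.06).

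Ddit4, also known as REDD1, inhibits the growth kinase complex mTORC1. Its acute effect was 0.20 ± 0.11 in WT mice (adjusted p = 0.504) compared with 0.35 ± 0.11 in AS mice (adjusted p = 0.0243), with overlapping groups at 31.7 to 50.7, 39.7 to 53.1, 30.3 to 39.9 and 37 to 47.5 CPM for WT vehicle, WT CORT, AS vehicle and AS CORT mice. With the low-quality covariate the AS effect was as large, at 0.37 with an SE of 0.16, and was not called (adjusted p = 0.461). The AS call was also lost without AS vehicle mouse H14 or AS CORT mouse H22. The average over the genotypes, 0.28 ± 0.07, was called (adjusted p = 0.021). That call was lost with the covariate (0.29, adjusted p = 0.121).

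After 5 days of CORT the hippocampal groups of Ddit4 no longer overlapped. WT mice read 56.3, 67.4, 67.7 and 68 CPM with vehicle and 80.7, 91.3, 93.3, 98.4 and 106 CPM with CORT. AS mice read 54.6, 65, 69.5 and 70.2 CPM with vehicle and 87.1, 92.1, 92.1, 98.5 and 104 CPM with CORT. The effects were 0.53 ± 0.08 (adjusted p = 0.0011) and 0.55 ± 0.08 (adjusted p = 0.000581), with an interval of -0.22 to 0.24 for the difference.

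Liver Ddit4 was lower than hippocampal Ddit4 with vehicle, at 3.01 to 16.3 CPM in WT and 1.63 to 12.6 CPM in AS mice. CORT livers read 21.6 to 54.4 CPM in WT and 20.3 to 41.3 CPM in AS mice, above every vehicle liver of their genotype. The rise was 4.46-fold (adjusted p = 0.00124) and 3.93-fold (adjusted p = 0.00186).

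Errfi1 encodes an inhibitor of the EGF receptor and is strongly expressed in liver. An antisense gene overlaps Errfi1, and its reads cannot be told apart where strand was not used. In acute hippocampus its groups overlapped in both genotypes, with effects of 0.25 ± 0.08 (adjusted p = 0.199) and 0.15 ± 0.08 (adjusted p = 0.221). The AS effect was 0.37 with the low-quality covariate (adjusted p = 0.105). The average of 0.20 ± 0.06 was called (adjusted p = 0.0391), but the call was lost in 15 of the 24 fits that left out 1 mouse. In continuous hippocampus the WT groups were apart, at 39.1 to 52.1 and 54.6 to 63.1 CPM, and the AS groups overlapped at 39.4 to 60.9 and 58 to 63.5 CPM. The average effect there was 0.30 ± 0.07 (adjusted p = 0.00833). By genotype it was 0.30 in WT and 0.30 in AS mice, neither called with edgeR, and limma-voom called the AS effect (adjusted p = 0.0359).

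Errfi1 levels in liver were 598, 822, 1022, 1165 and 1852 CPM in WT vehicle mice and 1399, 1489.8, 1516, 1612 and 1627 CPM in WT CORT mice. AS livers read 376, 566, 668, 964 and 1349 CPM with vehicle and 1318, 1464, 1465, 1799 and 1844 CPM with CORT. Vehicle livers were widely spread, and their highest mice overlapped the CORT livers. The AS effect of 1.01 ± 0.28 was called (adjusted p = 0.0107) and the WT effect of 0.49 ± 0.28 was not (adjusted p = 0.25).

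Dusp1 encodes a phosphatase that switches off MAP kinases, and is also an immediate early gene of neuronal activity. It was called in none of the 6 comparisons. Its acute effects were 0.08 ± 0.18 in WT mice (95% interval -0.27 to 0.43, adjusted p = 0.914) and -0.28 ± 0.18 in AS mice (95% interval -0.64 to 0.09, adjusted p = 0.303). WT mice lay between 10.4 and 20.6 with a median of 10.7 CPM with vehicle and between 11.6 and 19.4 with a median of 13.7 CPM with CORT.

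The AS effect was -0.026 with the low-quality covariate, and -0.024 when H17 and H18 alone stood for the AS vehicle group. AS mice lay between 9.27 and 15.4 with a median of 11.2 CPM with vehicle and between 6.76 and 12 with a median of 9.66 CPM with CORT. In continuous hippocampus the effects were 0.14 ± 0.21 (adjusted p = 0.828) and 0.22 ± 0.21 (adjusted p = 0.698), and in liver 0.03 ± 0.40 (adjusted p = 0.972) and 0.60 ± 0.40 (adjusted p = 0.295). The left-out vehicle mouse H9 held 48.5 CPM, above all other hippocampi of its cohort. Dusp1 overlaps the protein-coding gene Ergic1 on the opposite strand, so reads of that gene cannot be told apart where strand was not used.

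Over the 24 acute hippocampi, Dusp1 varied with the immediate early genes, measured in the same libraries. A score was formed as the mean log2 CPM of 11 such genes (Fos, Fosb, Junb, Egr1, Egr2, Egr3, Arc, Nr4a1, Npas4, Ier2 and Btg2), and both measures were centred on their group means. Pearson's r was 0.95 and Spearman's rho 0.90, each with a permutation p of 1e-05, the smallest that 100000 permutations can give, and an adjusted p of 1e-04 over the 10 genes. Without the 2 mice farthest from the median score r was 0.92, and within the sides of the low-quality division it was 0.95 (n = 16) and 0.93 (n = 8). For the other 9 genes r ran from -0.23 to 0.44 with permutation p-values of at least 0.291 after adjustment, and rho gave adjusted p-values of at least 0.0823. Within the division the r of those 9 genes ran from -0.12 (Fkbp5) to 0.44 (Map3k6) in the 16 libraries of the lower side. In the 8 libraries of the upper side it ran from -0.82 (Fkbp5) to 0.88 (Cdkn1a), with Sgk1 at 0.69.

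**Figure D2:**
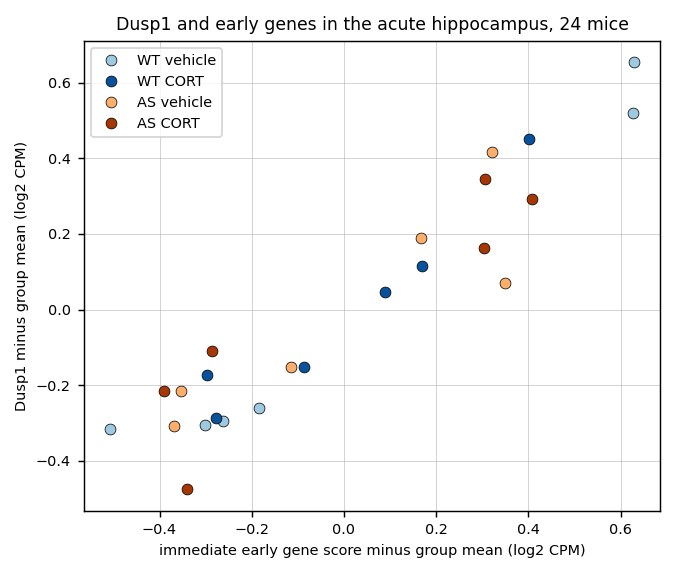
Dusp1 against the immediate early gene score in the acute hippocampus, both in log2 CPM minus the group mean, with 1 point for each of the 24 mice coloured by group. Mice of all 4 groups lie along a single line, with Pearson's r at 0.95.

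The next comparison asked whether the same genes answered the same pellet differently in 2 organs of the same mice. The difference of the CORT effects, liver minus hippocampus and averaged over the genotypes, was called for 6 of the 10 genes, 4 higher in liver and 2 lower, beside 25.5% of the 11017 genes tested in both tissues. Fkbp5 differed by 2.97 ± 0.23 (adjusted p = 6.74e-12), Ddit4 by 1.53 ± 0.31 (adjusted p = 0.000323), Zbtb16 by 1.48 ± 0.26 (adjusted p = 4.86e-05) and Tsc22d3 by 0.84 ± 0.13 (adjusted p = 4.74e-06). For all of these the rise was larger in liver.

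Sgk1 went the other way by -1.44 ± 0.21 (adjusted p = 2.81e-06), and Nfkbia by -0.48 ± 0.15 (adjusted p = 0.0196). Cdkn1a had a difference of 1.76 ± 0.71 that was not called (adjusted p = 0.0653), but was with all 20 mice (1.99, adjusted p = 0.0316) and without both tissues of any 1 of the mice numbered 3, 7 and 8. With edgeR no difference was called for Errfi1 (0.45 ± 0.23, interval 0.00 to 0.90), Map3k6 (-0.27 ± 0.27, interval -0.81 to 0.27) or Dusp1 (0.13 ± 0.35, interval -0.55 to 0.82). For Errfi1, limma-voom gave a called difference of 0.71 on average (adjusted p = 0.0059) and of 1.10 in AS mice (adjusted p = 0.0036), and leaving out both tissues of mouse 17 gave 0.58 on average (adjusted p = 0.0477).

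In WT mice alone 5 genes differed between the organs (10.8% of all genes) and in AS mice alone 5 (16.7%), in each case Fkbp5, Tsc22d3, Zbtb16, Ddit4 and Sgk1. With all 20 mice these were 3 in WT and 4 in AS mice, beside 953 and 1408 of all 11065 genes. With 1 mouse left out, the Ddit4 call was lost in 2 of 20 fits in WT and 3 of 20 in AS mice. With the mouse as a replicate block, Errfi1 was also called for the average (0.50, adjusted p = 0.0417) as well as in AS mice (0.80, adjusted p = 0.0322), Nfkbia was called in AS mice (-0.56, adjusted p = 0.0432), and Ddit4 was lost in WT mice (1.65, adjusted p = 0.0563).

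**Figure D3:**
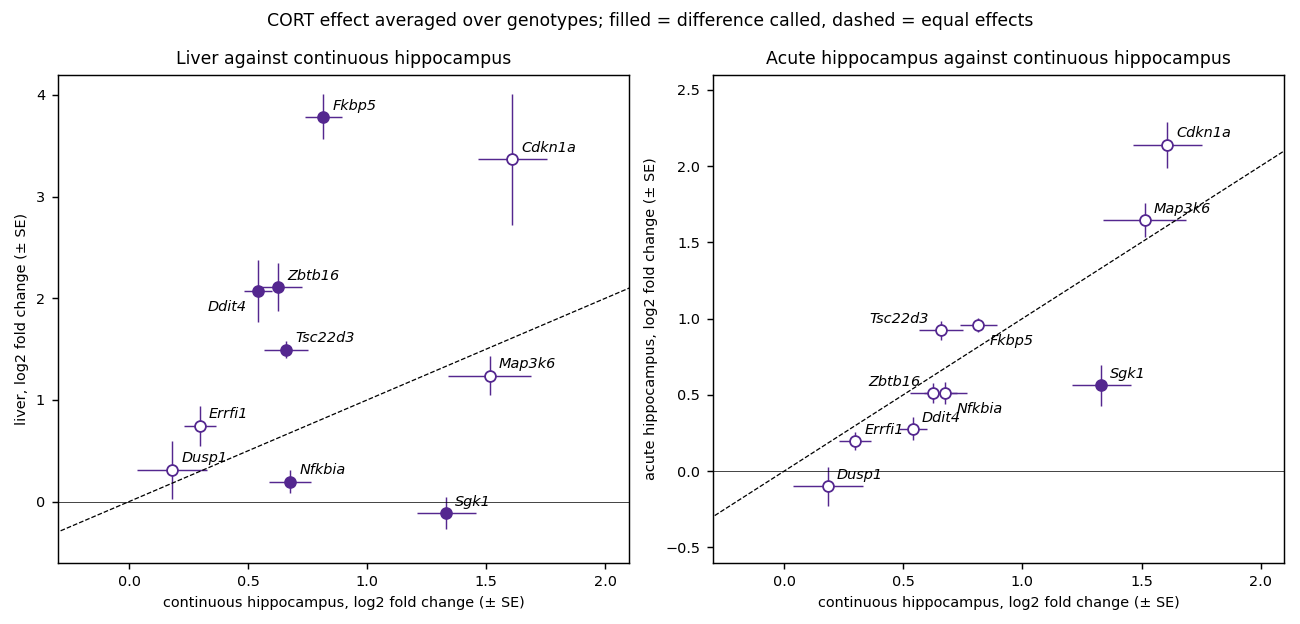
CORT effect averaged over the genotypes, as log2 fold change with its SE, in liver against continuous hippocampus (left) and in acute against continuous hippocampus (right), with 1 point per gene, the dashed line at equal effects and filled points where the difference was called. Fkbp5, Ddit4, Zbtb16 and Tsc22d3 stand above the line and Sgk1 and Nfkbia below it on the left, and Sgk1 is the only filled point on the right.

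The starting levels also differed between organs, which bears on how a fold change reads. Per kilobase of exon, so that genes can be compared, WT vehicle livers held 305 ± 133 CPM of Errfi1 (mean ± SD, n = 5), 19.9 of Nfkbia, 17.2 of Tsc22d3, 9.02 of Dusp1, 5 of Ddit4, 4.33 of Sgk1, 2.26 of Zbtb16, 2.02 of Cdkn1a, 2.01 of Fkbp5 and 0.121 of Map3k6. WT vehicle hippocampi of the same cohort (n = 4) were led by Ddit4 at 36.9 ± 3.23 CPM per kilobase, followed by Errfi1 at 13.3, Sgk1 at 12.8, Nfkbia at 12.2, Zbtb16 at 11.6, Tsc22d3 at 10.1, Fkbp5 at 7.52, Dusp1 at 4.03, Cdkn1a at 1.39 and Map3k6 at 0.386. Errfi1 in liver stood apart from all else, whereas Errfi1, Sgk1, Nfkbia and Zbtb16 in hippocampus lay within each other's spread.

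Across the 18 mice with both tissues in the fit, levels centred on group means were compared between hippocampus and liver. No gene passed adjustment over the 10 tests. Errfi1 came nearest, with r at 0.81 (permutation p = 0.0107, adjusted 0.107), rho at 0.56 (permutation p = 0.0445, adjusted 0.338) and r at 0.62 without the 2 mice farthest from the median. The others had r between -0.51 and 0.60.

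Acute and continuous CORT were then compared in hippocampus. These cohorts differ in dose, route, time and count table at once, and these cannot be told apart. The difference of the CORT effects, acute minus continuous and averaged over the genotypes, was called for 1 of the 10 genes beside 2.58% of all 14419 genes tested. This was Sgk1, whose acute effect was smaller by -0.78 ± 0.20 (adjusted p = 0.0191). With the low-quality covariate the value was -0.70 and the call was lost (adjusted p = 0.103).

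In AS mice alone Sgk1 was again the only gene (2.59% of all genes), at -1.11 ± 0.28 (adjusted p = 0.0242). This call was lost with the low-quality covariate (-0.95, adjusted p = 0.422) and in 3 of the 18 fits that left out 1 mouse of the continuous cohort, those without AS CORT mouse H7 and AS vehicle mice H11 and H14. In WT mice alone none of the 10 was called (0.52% of all genes), Sgk1 being at -0.45 ± 0.28. The remaining average differences ran from -0.29 ± 0.20 for Dusp1 to 0.52 ± 0.23 for Cdkn1a. For Fkbp5 the difference was 0.13 ± 0.09 with an interval of -0.04 to 0.30.

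**Figure D4:**
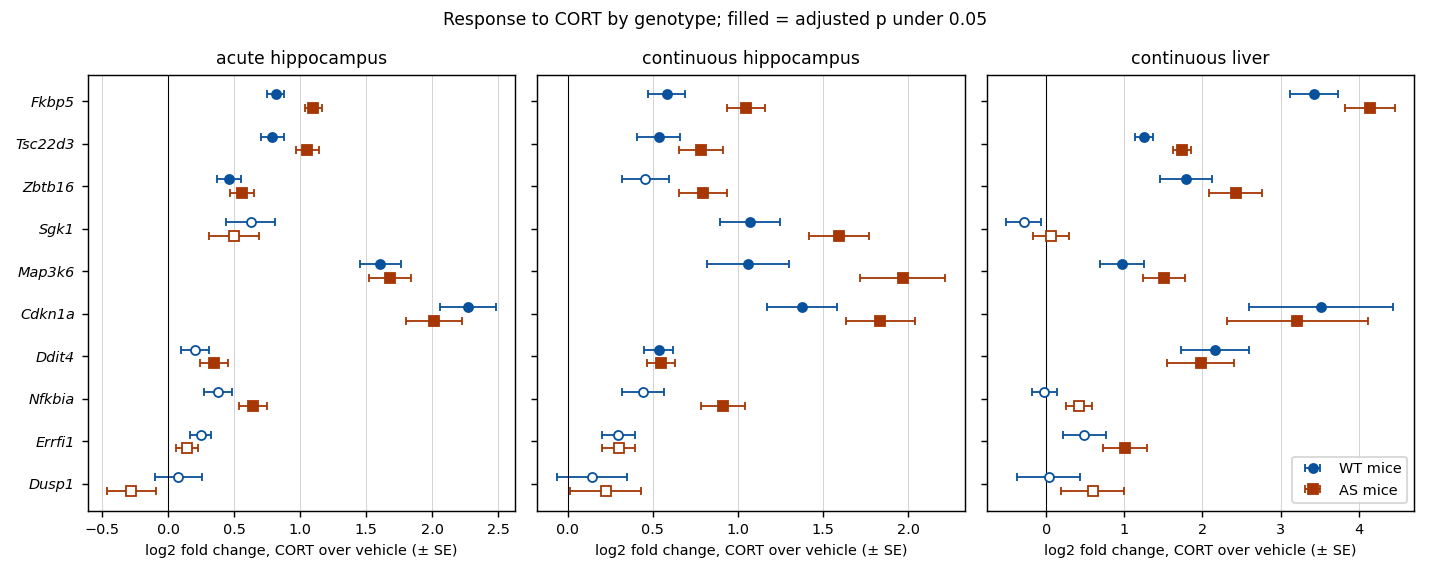
CORT effect of each gene as log2 fold change over vehicle with its SE, in WT mice (circles) and AS mice (squares), for the acute hippocampus, the continuous hippocampus and the liver on separate scales, with filled symbols where the adjusted p was under 0.05. Fkbp5, Tsc22d3, Cdkn1a and Map3k6 have filled symbols for both genotypes in every panel, and Dusp1 has none.

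The genotype question was tested as an interaction, in which the WT effect of CORT is subtracted from the AS effect. It was called for 0 of the 10 genes in acute hippocampus, where 4.54% of all genes were called (664 genes, against 1 with the low-quality covariate, 0 with AS vehicle mice H17 and H18 alone, and 0 to 1568 with 1 mouse left out, the lowest without AS vehicle mouse H14 and the highest without H17), for 0 in continuous hippocampus (0% of all genes) and for 0 in liver (0%). At an unadjusted p under 0.05 it was 2, 4 and 1 of the 10 genes, beside 3442 of 14611, 561 of 14949 and 995 of 12273 genes tested.

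For Fkbp5 the interaction was 0.29 ± 0.09 in acute hippocampus (adjusted p = 0.0573), 0.47 ± 0.15 in continuous hippocampus (adjusted p = 1) and 0.72 ± 0.40 in liver (adjusted p = 0.662). DESeq2 and limma-voom called the acute value (adjusted p = 0.0273 and 0.0023), and leaving out WT vehicle mouse H6, WT CORT mouse H8 or AS vehicle mouse H17 or H18 brought it past the threshold as well. Tsc22d3 gave 0.26 ± 0.12, 0.25 ± 0.18 and 0.49 ± 0.16, and Map3k6 0.08 ± 0.22, 0.91 ± 0.35 and 0.54 ± 0.40, none called. With the low-quality covariate the acute interactions of Map3k6 and Nfkbia were 0.50 and 0.056, in place of 0.08 and 0.27, and that of Fkbp5 was 0.28 with an adjusted p of 0.894. Wide intervals remained for others, such as -2.68 to 2.08 for Cdkn1a in liver, so a missed threshold does not show equal responses.

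Between the genotypes with vehicle, 0 of the 10 genes were called in acute hippocampus (0.164% of all genes), continuous hippocampus (0.0134%) and liver (0.0163%). At an unadjusted p under 0.05 there were 2, 3 and 1, beside 1389 of 14611, 1098 of 14949 and 1270 of 12273 genes tested. DESeq2 called 1 of the 10 genes in each, beside 99, 18 and 44 of all genes (24, 2 and 2 in edgeR). These were Tsc22d3 in acute hippocampus and in liver and Fkbp5 in continuous hippocampus. Tsc22d3 was lower in AS mice by -0.38 in acute hippocampus (edgeR adjusted p = 0.0792, DESeq2 0.0169) and by -0.58 in liver (edgeR adjusted p = 0.141, DESeq2 0.00416), and Fkbp5 by -0.50 in continuous hippocampus (edgeR adjusted p = 0.3, DESeq2 0.0229). These vehicle mice are also part of each interaction, so the values are not independent of those above.

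Between the genotypes with CORT, 1 of the 10 genes was called in acute hippocampus beside 25% of all genes, and 0 in continuous hippocampus (0.0401%) and in liver (0.277%). The acute call was Dusp1, lower in AS mice by -0.58 ± 0.18 (adjusted p = 0.0223). With the low-quality covariate 0 of all genes were called in this contrast, against 3655 without it. Dusp1 was at -0.22 with an SE of 0.33 (adjusted p = 0.964). The covariate is estimated from AS vehicle mice, which are in neither group here, so this loss cannot decide the contrast. The Dusp1 call was also lost without WT CORT mouse H7 or AS CORT mouse H23. The low-quality division, which separates all AS CORT from all WT CORT libraries, cannot be told apart from genotype in this contrast.

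The surrounding pathway was read from 3 lists. Their acute values include the AS CORT group and are given without the low-quality covariate. Of 9 tested receptors, chaperones and hormone enzymes, CORT lowered 2 in acute hippocampus, where 3.68% of all genes were called lower, Nr3c1, which encodes GR (-0.42, adjusted p = 6.78e-07), and Nr3c2, which encodes MR (-0.17, adjusted p = 0.0441). In continuous hippocampus (5.48% of all genes called lower) it lowered 3, Hsd11b1, which regenerates active hormone (-0.52), Nr3c1 (-0.35) and Nr3c2 (-0.27). In liver 6 rose (17.5% of all genes called higher) and 2 fell (19.6% called lower), with Hsd11b1 at 0.56, the heat shock proteins Hspa8 at 0.44 and Hsp90aa1 at 0.42, and Nr3c2 at -0.42. Nr3c1 in liver was at -0.19 (adjusted p = 8.44e-05), so the receptor transcript was lower in all 3 data sets.

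Of 10 coregulators none was called in hippocampus with the average CORT effect. In liver 1 fell, Ncoa3 (-0.32), beside 19.6% of all genes called lower there. Of other genes known to respond to glucocorticoids, 10 rose and 1 fell among 19 tested in acute hippocampus, 12 rose among 20 in continuous hippocampus, and 13 rose and 1 fell among 23 in liver, beside 3.37%, 4.19% and 17.5% of all genes called higher. The largest were Plin4, a coat protein of lipid droplets, in hippocampus (2.32 acute, 4.37 continuous), and in liver the metallothioneins Mt2 (5.35) and Mt1 (3.22), with Gadd45b (3.81) and Cebpd (1.79). Beside them Fkbp5 at 3.78 ± 0.22 in liver was of the same order.

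The 5 genes nearest to Fkbp5 by Euclidean distance over its 6 log2 CORT effects were Mt1 (distance 1.20), Fam107a (1.27), Mfsd2a (1.52), Gadd45b (1.78) and Fmo2 (1.94). Mt1 moved by 0.47 and 0.36 in acute hippocampus, 0.51 and 0.97 in continuous hippocampus and 2.61 and 3.84 in liver, for WT and AS mice in turn. Of the 10 targets, Cdkn1a was the nearest to Fkbp5, at 2.25.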

How the data were processed

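RNA-seq libraries of hippocampus (24 acute, 20 continuous) and liver (20) were analysed from count tables. Per the study's methods the authors aligned stranded paired-end reads with STAR to mm10, counted reads per gene with HTSeq-count and deposited raw counts; the strand setting was not given in the sources used here. The members and gene lists were chosen with earlier results of these data known. Named genes were the 10 members, the genes nearest to Fkbp5, and genes of the lists.

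Genes were tested where 3 or more replicates of any group exceeded 20 normalized counts, with edgeR 4.0.16 (R 4.3.3; TMM scaling, quasi-likelihood F-test, 1 coefficient per group), and p-values were Benjamini-Hochberg adjusted over all tested genes. Intervals of 95% are the estimate with 1.96 SE. The study calls its WT mice littermates of the AS mice; which mice shared a litter is not given in the labels, so no fit had a litter term and p-values measure the spread between these mice. Reads on no gene (11.7 to 23.3% of a library) were left out. A floor of 3 counts, which covers counting error only, is about 0.15 CPM. Both tissues were taken from each animal per the study's methods, and a shared number, with the same genotype and treatment, was read as 1 animal. The correlation of their deviations from group means ran from -0.064 to 0.076 over 18 pairs, and in 0 of them was it highest with the own number. The pairing thus does not show in the data, and the mouse as a block was an alternative. DESeq2 1.42.0, limma 3.58.1, other filters, covariates and left-out mice were tried. The edgeR script was tested on simulated data.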

Additional observations from a re-analysis of the deposited data

Results flagged for a closer look

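Single mice stood apart from the rest of their group in 9 of 120 groups of a gene, where chance gives about 1 in 20. In acute hippocampus these were Sgk1 in WT vehicle mouse H3 (87.1 CPM) and AS vehicle mouse H16 (80.4 CPM), and Cdkn1a in WT CORT mouse H11 (64.0 CPM). In continuous hippocampus Ddit4 was lowest in WT vehicle mouse H6 (56.3 CPM). In liver the high values were Sgk1 in WT CORT mouse L5 (20.9 CPM), Map3k6 in AS vehicle mouse L11 (0.737 CPM) and Map3k6 in WT CORT mouse L3 (1.83 CPM). The low liver values were Fkbp5 in AS CORT mouse L10 (183 CPM) and Cdkn1a in WT CORT mouse L3 (5.34 CPM). L3 thus held the highest Map3k6 and the lowest Cdkn1a of its group.

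The CORT effect differed between tissues, by a test of the difference itself, for Fkbp5 (2.97), Ddit4 (1.53), Zbtb16 (1.48), Tsc22d3 (0.84), Nfkbia (-0.48) and Sgk1 (-1.44), as log2 liver minus hippocampus. Between the acute and the continuous hippocampus it differed for Sgk1 (-0.78, acute minus continuous).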

How the results depend on the processing

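Of the single-gene values that were followed under another setting, 941 kept direction and side of the threshold, 28 passed it, 29 fell short and 25 changed sign. None of those 25 was called. Not every gene was followed between genotypes. The members that limma-voom added there with CORT in acute hippocampus are not among the 28 and are not named here. With 1 mouse left out, 3234 kept both, 30 passed, 37 fell short and 49 changed sign. Where a cause is not given, the cause was not tested.

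Members called between genotypes with CORT in acute hippocampus (1, beside 3655 of all 14611 genes) were 4 with limma-voom (5354), 2 with only the groups compared (3518), and 0 with the low-quality covariate (0) or at adjusted p under 0.01 (1708). With vehicle (0 in edgeR) DESeq2 called 1 in acute hippocampus, 1 in continuous hippocampus and 1 in liver, beside 99, 18 and 44 of all genes (24, 2 and 2 in edgeR). The acute interaction (0, beside 664 of all genes) was 1 in DESeq2 (1226) and 1 in limma-voom (3377). The covariate left 0 in the acute minus continuous comparison of the average and 0 in that of AS mice (1 each). With all 20 mice, 3 members rose in continuous WT hippocampus (6 without H9 and H13; 34 and 120 of all genes), and 3 differed between liver and hippocampus in WT mice (5). With the mouse as a replicate block 7 members differed between the organs on average (6 without it); the changed calls stand in the report, and no other call changed. Leaving out 1 mouse gave 0 to 2 members called between genotypes with CORT and 0 to 1 with vehicle in acute hippocampus, 0 to 1 for the acute interaction, 0 to 1 for the acute minus continuous difference in AS mice, 0 to 1 between genotypes with vehicle in continuous hippocampus, and 4 to 8 for CORT in continuous WT hippocampus.

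Signs changed as follows (log2). With the low-quality covariate, and with AS vehicle mice reduced to H17 and H18, the acute average of Dusp1 was 0.025 and 0.029, and the acute interactions of Errfi1 0.12 and 0.12 and of Sgk1 0.0191 and 0.0188; with the covariate the acute minus continuous difference of Errfi1 was 0.066 in AS mice and 0.0037 on average. With limma-voom the interactions were -0.059 for Map3k6 and -0.0100 for Zbtb16 in acute hippocampus, and -0.054 for Ddit4 and -0.0060 for Errfi1 in continuous hippocampus; the acute minus continuous difference of Map3k6 was -0.11, and in liver Fkbp5 was at 0.12 between vehicle genotypes, AS Sgk1 at -0.074 and WT Nfkbia at 0.078. With all 20 mice the continuous hippocampal Dusp1 effects were -0.37 (AS), -0.020 (WT), -0.19 (average) and -0.35 (interaction), the interactions of Errfi1 and Tsc22d3 -0.076 and -0.049, Tsc22d3 between vehicle genotypes 0.13, and the acute minus continuous differences of Dusp1 and Fkbp5 0.084 and -0.036.

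Leaving out 1 mouse moved interactions from -0.77 to 0.012 (Cdkn1a), and -0.53 to 0.047 (Ddit4) in liver, -0.060 to 0.075 (Ddit4), -0.042 to 0.22 (Dusp1) and -0.088 to 0.12 (Errfi1) in continuous hippocampus, and -0.035 to 0.20 (Map3k6) and -0.26 to 0.073 (Sgk1) in acute hippocampus. CORT effects moved from -0.023 to 0.24 (Dusp1, acute WT), and in liver from -0.21 to 0.20 (Dusp1, WT), -0.13 to 0.12 (Nfkbia, WT) and -0.16 to 0.18 (Sgk1, AS). Genotype differences moved from -0.013 to 0.25 (Dusp1, CORT, continuous hippocampus), -0.035 to 0.35 (Dusp1, CORT, liver) and -0.37 to 0.25 (Fkbp5, vehicle, liver). Differences of effects moved from -0.014 to 0.29 (Dusp1, liver minus hippocampus), and, acute minus continuous, from -0.11 to 0.023 (Errfi1, WT), -0.015 to 0.22 (Map3k6) and -0.14 to 0.017 (Nfkbia, WT). Depth limits Map3k6 in liver most, where 1 vehicle mouse was near the floor.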
